A study of Homo sapiens with 27 samples.

Results

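The genes described here encode the DNA replication machinery and the enzymes that supply its nucleotides: the factors that license origins, the MCM2-7 helicase and the factors that switch it on, the sliding clamp and its loaders, the replicative polymerases and primase, the enzymes that process and join Okazaki fragments, ribonucleotide reductase, thymidylate synthase, thymidine kinase and the transcription factor E2F1. Members were taken by symbol from a list of 40, and no threshold on a measured value entered the rule. The table held a row for 39 of them, out of 20987 genes, and UHRF1 was not analysed here. All 39 passed the filter on low values in each of the 3 cell lines, which asked for a normalised count of 10 or more in at least 3 libraries.

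Polyadenylated RNA was sequenced in 27 libraries of 3 established lines of human prostate cancer. The labels call LNCaP androgen sensitive, and they call 22Rv1 and LNCaP95, a derivative of LNCaP, castration resistant. Each line was given IPI-9119 at 100 nM or 500 nM, or DMSO, its vehicle, alone, and stayed on the same medium for 6 days. IPI-9119 inhibits FASN, the enzyme that makes fatty acids. Each of the 9 groups had 3 libraries. No label says that replicates came from separate cultures, so a p-value here measures library-to-library spread that may be technical. Within a line the 3 DMSO libraries served both doses, so the effects of the doses are not independent.

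In G1 phase the origin recognition complex, CDC6 and CDT1 load the ring of MCM2 to MCM7 onto DNA. At the start of S phase CDC45 and the GINS complex bind the ring and turn it into the active helicase, and polymerase alpha with primase then lays down primers that polymerases delta and epsilon extend on the PCNA clamp. Transcription of many of these genes is switched on near the G1/S border by E2F factors once RB is phosphorylated, so their RNA is widely read as a mark of how many cells of a culture are cycling.

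Library depth was 14757874 to 26578881 reads in genes. Of the 9 prostate luminal genes listed, all were detected in every library of every line, among them HOXB13, KRT8 and KRT18. The basal markers KRT5 and TP63 reached at most 6.19 normalised counts in any library and KRT14 at most 17.3, in LNCaP, where every library had some, and PECAM1 and CDH5 of endothelium at most 1.19. Single genes of the other lists were detected, such as COL1A1 in all lines (202 to 892), LUM (780 to 1548) and PTPRC (65.4 to 139) in LNCaP95, and VWF in LNCaP (197 to 376); COL1A2 and CD3E were at 0 in the median library of each line. In LNCaP the summed levels moved with treatment. The 5 stromal markers summed to 426 to 610 at 500 nM and 466 to 618 at 100 nM, against 266 to 312 with DMSO, with COL1A2 and DCN at 0 in all LNCaP libraries. The 5 immune markers summed to 66.5 to 78.7 at 500 nM and 72.4 to 92.7 at 100 nM, against 11.99 to 27.5 with DMSO; CD68 accounted for most of it, and PTPRC reached at most 1.56. The sum of the 3 basal markers was lower, at 3.31 to 3.91 at 500 nM and 4.67 to 5.57 at 100 nM, against 11.4 to 18.5 with DMSO. Most of it was KRT14, as TP63 was at 0 in all LNCaP libraries and KRT5 reached at most 1.57. The 9 luminal markers summed to 85322 to 93624 at 500 nM, against 100899 to 115542 with DMSO, in LNCaP, and to 65103 to 69843 at 500 nM, against 55119 to 57312 with DMSO, in LNCaP95. The part of these genes in the results was not tested. Some libraries stood apart: more genes were detected in 22Rv1 DMSO replicate 3 (18444) than in any other 22Rv1 library (15585 to 15962), and the treated replicate 2 libraries of LNCaP95 held 7.56% and 6.92% mitochondrially encoded counts against 1.78% to 3.75% in the others of that line.

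LNCaP DMSO replicate 1 stood apart over the replication genes themselves, which bears on every comparison with LNCaP DMSO. Its value lay above those of DMSO replicates 2 and 3 in 39 of 39 members, by a median ratio of 1.56 over their mean. It lay above the lowest 500 nM library in 23 members and above the highest in 11. Likewise LNCaP 100 nM replicate 1 lay below the other two 100 nM libraries in 39 of 39 members. The mean log2 level of 22 mitosis genes was also highest in DMSO replicate 1 among the LNCaP DMSO libraries, which ran from 8.39 to 10.09. The part of these libraries' standing in the results was not tested beyond leaving them out, and in bulk RNA fewer cycling cells and less RNA of these genes per cell cannot be told apart.

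The promoters of 6 members are shown first, 4 that hold E2F-type words and 2 that hold none, because E2F control is what these genes are known for and the list did not use sequence. RefSeq windows from 250 bases before to 50 after the gene's start (GRCh38.p14) were found for 34 of the 39 genes. They were searched on both strands for 4 exact E2F-type words, TTTCCCGC, TTTGGCGC, TTTCGCGC and TTTGCCGC, and words were allowed to overlap each other. The windows are printed 5′ to 3′ on the strand of the gene, with the E2F-type words of either strand in capitals. CDC6, MCM6, PCNA and E2F1 hold such words, while MCM10, the member with the largest change in LNCaP at 100 nM and in LNCaP95 at 500 nM, and RPA1, the one nearest 0 in LNCaP at 100 nM, hold none.
CDC6, chr17:40287629-40287928, plus strand: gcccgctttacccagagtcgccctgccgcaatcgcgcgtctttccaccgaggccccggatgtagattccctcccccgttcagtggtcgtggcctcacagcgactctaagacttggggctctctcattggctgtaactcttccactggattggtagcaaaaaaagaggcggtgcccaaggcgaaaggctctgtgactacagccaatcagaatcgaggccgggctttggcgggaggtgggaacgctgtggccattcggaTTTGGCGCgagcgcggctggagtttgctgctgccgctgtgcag
MCM6, chr2:135876394-135876693, minus strand: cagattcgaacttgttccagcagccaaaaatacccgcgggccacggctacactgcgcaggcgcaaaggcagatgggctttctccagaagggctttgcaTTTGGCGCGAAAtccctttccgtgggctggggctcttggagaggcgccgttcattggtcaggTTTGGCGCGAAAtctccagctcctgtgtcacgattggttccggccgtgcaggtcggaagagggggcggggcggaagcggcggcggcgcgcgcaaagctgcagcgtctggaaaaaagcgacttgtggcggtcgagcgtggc
PCNA, chr20:5126573-5126872, minus strand: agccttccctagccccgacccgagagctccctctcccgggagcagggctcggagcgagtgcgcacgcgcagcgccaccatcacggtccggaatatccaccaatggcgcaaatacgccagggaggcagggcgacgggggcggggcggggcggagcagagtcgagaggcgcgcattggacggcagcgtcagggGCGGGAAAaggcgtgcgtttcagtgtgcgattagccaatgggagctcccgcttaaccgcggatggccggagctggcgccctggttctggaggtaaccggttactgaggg
E2F1, chr20:33686336-33686635, minus strand: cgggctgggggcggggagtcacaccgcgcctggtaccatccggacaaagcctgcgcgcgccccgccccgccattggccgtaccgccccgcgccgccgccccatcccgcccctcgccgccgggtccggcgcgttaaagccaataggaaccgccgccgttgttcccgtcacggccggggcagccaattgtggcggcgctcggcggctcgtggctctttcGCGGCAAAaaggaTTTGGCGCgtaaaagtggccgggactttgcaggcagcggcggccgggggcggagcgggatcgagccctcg
MCM10, chr10:13161308-13161607, plus strand: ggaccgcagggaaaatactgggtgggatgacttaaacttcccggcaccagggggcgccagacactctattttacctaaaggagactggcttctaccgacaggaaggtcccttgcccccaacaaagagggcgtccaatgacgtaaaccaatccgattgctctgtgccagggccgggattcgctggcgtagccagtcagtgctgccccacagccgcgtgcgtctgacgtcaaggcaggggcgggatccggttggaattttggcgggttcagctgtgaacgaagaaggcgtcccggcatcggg
RPA1, chr17:1829755-1830054, plus strand: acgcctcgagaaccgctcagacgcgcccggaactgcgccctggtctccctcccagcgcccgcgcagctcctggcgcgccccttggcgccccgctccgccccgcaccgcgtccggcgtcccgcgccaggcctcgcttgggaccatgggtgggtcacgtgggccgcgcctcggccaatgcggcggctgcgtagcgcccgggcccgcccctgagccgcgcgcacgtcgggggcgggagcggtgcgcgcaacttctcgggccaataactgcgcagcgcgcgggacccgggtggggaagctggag
At least 1 of these words was present in 18 of 34 member windows (52.9%), against 908 of 27305 windows over all genes (3.33%) and 618 of 14172 windows of genes in the count table (4.36%). MCM6 had the most, with 4 matches in 2 overlapping pairs, each pair reading as 1 run of capitals. Members with and without a word had similar medians: in LNCaP95 at 500 nM the median log2 fold change was -1.17 in the 18 members with a word and -1.09 in the 16 without, and in LNCaP at 100 nM it was 1.08 and 1.04. The CCAAT box was found in 19 of 34 member windows (55.9%), against 35.7% over all windows. A match is a description of these letters and shows neither binding nor regulation, and its absence says nothing of a factor.

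**Figure D1:**
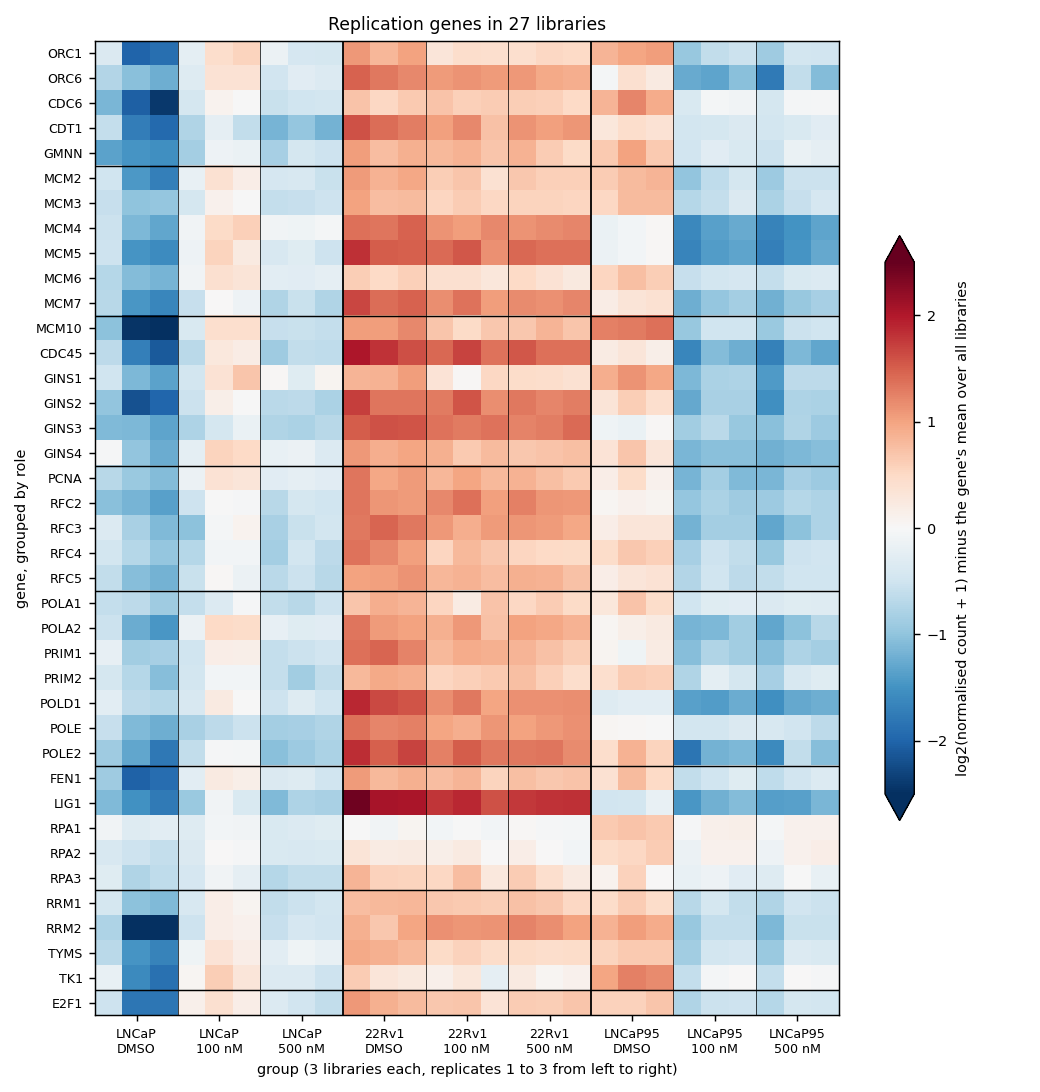
Level of each of the 39 replication genes (rows, grouped by role) in each of the 27 libraries (columns), as log2(normalised count + 1) minus the gene's mean over all libraries. The 22Rv1 columns are red in nearly all rows, and the LNCaP95 columns turn from red under DMSO to blue under both doses. The LNCaP columns, with DMSO replicates 2 and 3 the darkest blue, are on average less blue under both doses than under DMSO.

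The mean log2 level over the 39 genes was highest in 22Rv1 and lowest in LNCaP with DMSO. 22Rv1 had the highest levels, 11.22 ± 0.083 with DMSO, 10.94 ± 0.060 at 100 nM and 10.93 ± 0.046 at 500 nM (SD, n = 3 libraries). LNCaP95 stood at 10.57 ± 0.091 with DMSO, 9.39 ± 0.15 at 100 nM and 9.40 ± 0.20 at 500 nM. LNCaP stood at 9.01 ± 0.44 with DMSO, 10.06 ± 0.31 at 100 nM and 9.61 ± 0.034 at 500 nM. The 2 treated groups of LNCaP95 overlapped each other, as did those of 22Rv1, and LNCaP DMSO, from 8.69 to 9.51, overlapped both treated groups of LNCaP95. The group means of LNCaP95 and LNCaP were closer to each other at 500 nM (9.40 and 9.61) than under DMSO (10.57 and 9.01).

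**Figure D2:**
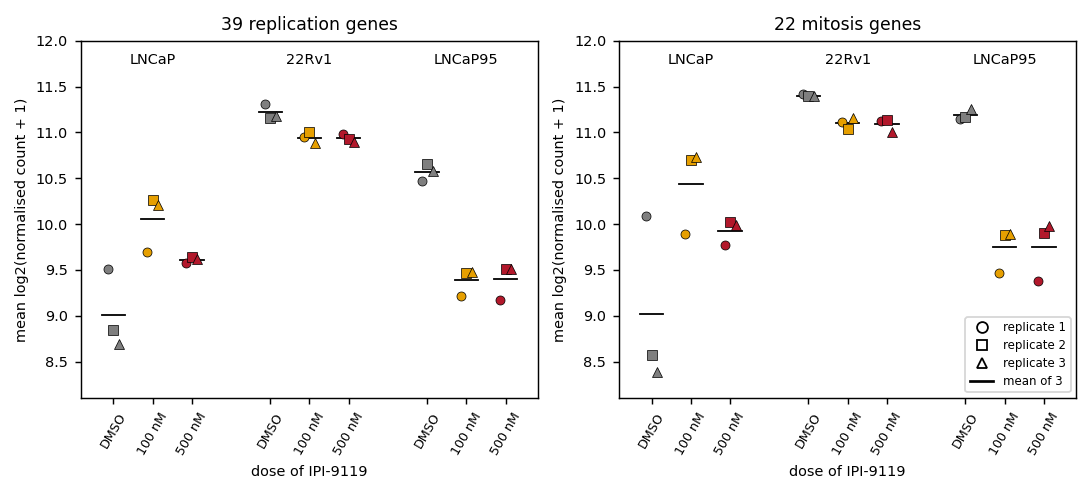
Mean log2(normalised count + 1) over the 39 replication genes (left) and over 22 mitosis genes (right) in every library, by line and dose; symbols are replicates and bars the mean of 3. LNCaP DMSO replicate 1 (9.51 over the replication genes) lies above the other 2 DMSO libraries in both panels, and all treated LNCaP95 libraries (9.17 to 9.51) lie below the DMSO ones (10.47 to 10.65).

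In LNCaP at 500 nM, replication genes were higher than with DMSO: 16 of 39 rose and 0 fell (limma, adjusted p under 0.05). Over all 12837 genes tested, 11% rose and 9.83% fell. The median log2 fold change of the members was 0.64, against -0.01 over all genes. With libraries scaled to equal totals, 17 members rose. The share of all calls that were higher was then 68.9%, against 52.8% (65.7% against 54.3% at 100 nM). The share of all genes called under that scaling is not reported here. The rises were spread over 3 of 5 licensing factors, 3 of 6 MCM2-7 subunits, 3 of 6 helicase activators, 2 of 5 clamp and loader genes, 1 of 7 polymerase and primase genes, 1 of 5 genes of flap processing, ligation and single-strand binding, 2 of 4 nucleotide supply genes and E2F1.

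CDC6, the ATPase that helps load the MCM ring, had 1125, 1166 and 1211 normalised counts in the 500 nM libraries, against 754, 399 and 311 with DMSO. All 3 treated libraries lay above all 3 controls, and the log2 fold change was 1.36 ± 0.257 (SE; adjusted p = 0.00407), a 2.57-fold rise. MCM6, a helicase subunit, had 1987, 1971 and 2033 at 500 nM and 1466, 1123 and 1069 with DMSO, again without overlap (0.73 ± 0.141, adjusted p = 0.00465). TYMS, the thymidylate synthase that makes dTMP, had 2050, 2292 and 2153 at 500 nM and 1548, 886 and 777 with DMSO (1.08 ± 0.211, adjusted p = 0.0048). For FEN1, the nuclease that trims the flaps of Okazaki fragments, counts were 1697, 1755 and 1551 at 500 nM and 1178, 542 and 589 with DMSO (1.20 ± 0.242, adjusted p = 0.00561). These genes have in common that the control of replicate 1 was the nearest to the treated libraries.

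PCNA, the sliding clamp, had 4012, 4176 and 4009 at 500 nM and 3006, 2540 and 2296 with DMSO (0.65 ± 0.136, adjusted p = 0.00718). RRM2, the regulated subunit of ribonucleotide reductase, had 1367, 1516 and 1452 at 500 nM against 1185, 363 and 297 with DMSO, the largest log2 fold change of any member in this comparison (1.52 ± 0.400, adjusted p = 0.0214). E2F1 had 836, 758 and 697 at 500 nM and 740, 304 and 305 with DMSO, so that 1 treated library lay below the highest control (0.89 ± 0.274, adjusted p = 0.0396). Other fixed members did not pass. MCM2 was at 0.76 ± 0.252 (adjusted p = 0.0544), CDC45, which joins the ring to form the active helicase, at 0.77 ± 0.329 (adjusted p = 0.117) and POLA1, the catalytic subunit of polymerase alpha, at 0.10 ± 0.141 (adjusted p = 0.662).

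The number of members that rose at 500 nM changed with the libraries used. It was 16 with all libraries and 28 without DMSO replicate 1. It was 8 without DMSO replicate 2 or replicate 3 and 9 without any 1 of the 500 nM libraries. The shares of all genes called in these smaller fits are not reported here. CDC6, GMNN, MCM4, MCM6, PCNA, RFC2, FEN1 and TYMS kept the call under each of the 13 alternatives tried, and RRM2 and E2F1 lost it without DMSO replicate 2 or 3, without any 1 of the 500 nM libraries and under edgeR on the recovered reads. Treated and control libraries did not overlap in 16 members, all higher at 500 nM, and 19.6% of all genes were higher without overlap. With DMSO replicate 1 set aside, the remaining 2 controls lay below all 500 nM libraries in 33 members, as they did in 31.7% of all genes.

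At 100 nM more of the set rose in LNCaP: 32 of 39 rose and 0 fell, against 13.7% and 11.6% of all genes, with a median log2 fold change of 1.07. All licensing factors, all MCM2-7 subunits, all helicase activators and all 4 nucleotide supply genes were among them. Of the 32 calls, 25 held under each of the 13 alternatives, and those of CDT1, CDC45, GINS1 and GINS4 were among the ones that did not. MCM6 had 2250, 3146 and 2994 at 100 nM against 1466, 1123 and 1069 with DMSO (1.20 ± 0.141, adjusted p = 0.000268). PCNA had 4368, 6238 and 5970 at 100 nM against 3006, 2540 and 2296 with DMSO (1.07 ± 0.136, adjusted p = 0.000431). RFC2, a subunit of the clamp loader, had 1079, 1529 and 1496 at 100 nM against 740, 688 and 601 with DMSO (1.003 ± 0.140, adjusted p = 0.000754). In each the lowest treated library was replicate 1 and lay above all controls.

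Larger changes were seen in genes with a wider spread. MCM10, which helps the helicase start, had 538, 932 and 930 at 100 nM against 342, 126 and 114 with DMSO, a 4.54-fold rise (2.18 ± 0.349, adjusted p = 0.00163). RRM2 had 1414, 2281 and 2192 at 100 nM against 1185, 363 and 297 with DMSO (1.93 ± 0.400, adjusted p = 0.00628). CDC6 had 1220, 1756 and 1641 at 100 nM against the same controls (1.74 ± 0.257, adjusted p = 0.00105), and E2F1 had 1160, 1406 and 1186 (1.60 ± 0.274, adjusted p = 0.00232). FEN1 (1.64), TYMS (1.40), CDC45 (1.42) and MCM2 (1.33) also rose, CDC45 with a call that was lost without 100 nM replicate 2. The 7 members that did not pass were RFC3, RFC4, POLA1, PRIM1, POLE, RPA1 and RPA3, at 0.06 to 0.58; POLA1 was at 0.39 ± 0.141 (adjusted p = 0.0632). In 27 members all 100 nM libraries lay above all controls, against 18.2% of all genes.

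Between the doses of LNCaP the direction turned: all 39 members were lower at 500 nM than at 100 nM, with a median of -0.43, but 0 were called by limma, where 0.00779% of all genes passed, and 0 by edgeR. Of the members, 17 had an unadjusted p under 0.05, as did 1463 of all 12837 genes, and 0% of all genes were called lower at 500 nM. MCM6 had 1987, 1971 and 2033 at 500 nM against 2250, 3146 and 2994 at 100 nM (-0.47 ± 0.141, adjusted p = 0.342). RPA3, the small subunit of the single-strand binding complex, PCNA and MCM3 were at -0.40, -0.43 and -0.45. The 500 nM libraries lay wholly below the 100 nM ones in 18 members, against 9.77% of all genes. With replicates 2 and 3 only, an alternative added after the data were seen, 33 members were called lower at 500 nM. Of all genes, 5.96% were then called in either direction. Replicate 1 of DMSO and of 100 nM stood apart in these same members, so this count is no separate test of the step. Leaving out any 1 of the 6 libraries compared gave 0 calls among the members.

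In 22Rv1 replication genes were slightly lower in treated cells. At 500 nM, 6 of 39 fell and 0 rose, against 3.5% and 3.47% of all 13563 genes, and the median log2 fold change was -0.27, against -0.00 over all genes. Of the 39, 38 were below 0, and in 31 all 500 nM libraries lay below all controls, which held for 16% of all genes. In 1 member, RRM2, they lay above, against 15.2% of all genes. The 6 that fell were RFC4, PRIM1, POLD1, TYMS, ORC1 and GINS1. With libraries scaled to equal totals the count was 22 (24 at 100 nM), and the share of all calls that were higher moved to 26.6% from 49.8% (26.9% from 48.7% at 100 nM). In a fit of all 27 libraries the count was 3 (2 at 100 nM). With equal totals the median log2 fold change at 500 nM was -0.36 over the members and -0.09 over all genes. The shares of all genes called in these alternatives are not reported here.

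RFC4, a clamp loader subunit, had 1236, 1208 and 1182 normalised counts at 500 nM against 2186, 1971 and 1742 with DMSO (-0.70 ± 0.107, adjusted p = 0.00276). PRIM1, the catalytic subunit of primase, had 1349, 1243 and 1137 at 500 nM against 1927, 2051 and 1760 with DMSO (-0.62 ± 0.099, adjusted p = 0.00338). TYMS had 3441, 3340 and 3367 at 500 nM against 4740, 4566 and 4329 with DMSO (-0.43 ± 0.082, adjusted p = 0.00991). In all 3 genes every treated library lay below every control. POLD1, the catalytic subunit of polymerase delta, had 2397, 2405 and 2433 at 500 nM against 4026, 3385 and 3230 with DMSO (-0.55 ± 0.108, adjusted p = 0.0106); its call was lost without 500 nM replicate 2. RFC4 and PRIM1 kept the call under all 12 alternatives, and ORC1, GINS1 and TYMS lost theirs under at least 1, TYMS without 500 nM replicate 2 and in a fit of all 27 libraries.

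The fixed members of the other roles did not pass in 22Rv1 at 500 nM. MCM2 had 5939, 5654 and 5636 at 500 nM against 7781, 6846 and 7266 with DMSO, without overlap (-0.34 ± 0.098, adjusted p = 0.0549). PCNA had 8834, 8222 and 7702 at 500 nM against 12231, 9471 and 10211 with DMSO (-0.36 ± 0.109, adjusted p = 0.0665). CDC6 had 2541, 2513 and 2353 at 500 nM against 2702, 2362 and 2594 with DMSO, which overlapped (-0.05 ± 0.088, adjusted p = 0.802). RRM2, the 1 member above 0, had 4786, 4565 and 4080 at 500 nM against 3792, 3247 and 4023 with DMSO. Its treated libraries all lay above the controls, by a narrow margin for replicate 3, and it did not pass (0.28 ± 0.100, adjusted p = 0.114). The other fixed members were at -0.37 (CDC45), -0.27 (POLA1), -0.21 (FEN1) and -0.27 (E2F1).

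At 100 nM in 22Rv1, 9 of 39 fell and 0 rose, against 3.36% and 3.19% of all genes, with a median of -0.28. ORC1, the ATPase subunit of the origin recognition complex, had 491, 540 and 534 at 100 nM against 836, 709 and 794 with DMSO (-0.58 ± 0.102, adjusted p = 0.00725). MCM10 had 1126, 974 and 1109 at 100 nM against 1436, 1447 and 1605 with DMSO (-0.49 ± 0.099, adjusted p = 0.0145). POLD1 (-0.55, adjusted p = 0.0117), RFC4 (-0.53, adjusted p = 0.0139), PRIM1, GINS1, TYMS, MCM2 and RFC3 also fell, while CDC6 was at 0.02 ± 0.088 and RRM2 at 0.27 ± 0.100. None of the 9 calls held under every alternative: 0 remained without 100 nM replicate 1, 3 without DMSO replicate 2 and 5 without DMSO replicate 3. In 23 members all 100 nM libraries lay below the controls, against 13.7% of all genes, and in 1 member, RRM2, above them, against 11%. The step between the doses gave 0 calls by limma or edgeR and 0 members with an unadjusted p under 0.05, with a median of -0.00; over all genes 0% were called and 152 had an unadjusted p under 0.05. The members with the smallest p in that step were RFC4 (-0.17), PRIM1 (-0.14), MCM10 (0.13) and GMNN (-0.13).

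In LNCaP95 all 39 members fell in treated cells at both doses and 0 rose. Of all 12844 genes, 24.1% fell and 28.2% rose at 500 nM, and the same percentages at 100 nM. The median log2 fold change of the members was -1.17 at 500 nM and -1.21 at 100 nM, against 0.03 over all genes at either dose. Every treated library lay below every control in all 39 members at each dose, which held for 27.3% of all genes at 500 nM and 28.3% at 100 nM.

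MCM10 had 366, 478 and 493 normalised counts at 500 nM against 1677, 1711 and 1806 with DMSO, 3.91-fold lower (-1.97 ± 0.130, adjusted p = 2.56e-07). MCM4, a helicase subunit, had 905, 1018 and 1155 at 500 nM against 2576, 2733 and 2934 with DMSO (-1.43 ± 0.104, adjusted p = 4.51e-07). MCM5, another subunit of the ring, had 562, 661 and 751 at 500 nM against 1660, 1746 and 1862 with DMSO (-1.42 ± 0.110, adjusted p = 6.79e-07). No treated library of these helicase genes overlapped a control, and replicate 1 was the lowest of each treated group. E2F1 had 649, 786 and 775 at 500 nM against 1589, 1592 and 1721 with DMSO (-1.15 ± 0.092, adjusted p = 8.21e-07). RRM2 had 934, 1376 and 1387 at 500 nM against 3717, 4203 and 3866 with DMSO (-1.69 ± 0.138, adjusted p = 9.57e-07). CDC6 had 1224, 1596 and 1627 at 500 nM against 2973, 3861 and 3143 with DMSO (-1.17 ± 0.126, adjusted p = 7.7e-06). Licensing, helicase, nucleotide supply and the E2F regulator were thus all lower together.

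PCNA had 2211, 2753 and 2596 at 500 nM against 5424, 6650 and 5242 with DMSO (-1.19 ± 0.111, adjusted p = 2.37e-06). TYMS had 1293, 1935 and 1897 at 500 nM against 3639, 3873 and 3886 with DMSO (-1.18 ± 0.144, adjusted p = 2.01e-05). POLE2, an accessory subunit of polymerase epsilon, had 54.5, 109 and 79.6 at 500 nM against 226, 307 and 247 with DMSO, 3.28-fold lower. Other fixed members at 500 nM were MCM2 (-1.42), CDC45 (-1.58), POLA1 (-0.81) and FEN1 (-1.05), each with an adjusted p of 2.36e-05 or less. Among the smallest changes were those of POLE (-0.54) and RPA2 (-0.49), and the smallest was that of RPA3, with 874, 1085 and 965 at 500 nM against 1162, 1644 and 1100 with DMSO (-0.40 ± 0.130, adjusted p = 0.0199). RPA3 lost its call without DMSO replicate 2 or without 500 nM replicate 1, and the other 38 kept theirs under all 13 alternatives, among them replicates 1 and 3 only.

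At 100 nM the values of LNCaP95 were close to those at 500 nM. MCM10 had 362, 492 and 491 at 100 nM (-1.96 ± 0.130, adjusted p = 2.44e-07) and E2F1 634, 735 and 745 (-1.21 ± 0.092, adjusted p = 5.9e-07) against the same controls. MCM6 had 1612, 1748 and 1777 at 100 nM against 3456, 4039 and 3660 with DMSO (-1.12 ± 0.085, adjusted p = 6.26e-07), and RFC2 had 789, 881 and 830 against 1595, 1662 and 1602 (-0.96 ± 0.074, adjusted p = 6.51e-07). Between the doses 0 of 39 members were called by limma or edgeR and 0 had an unadjusted p under 0.05, with a range of -0.09 to 0.28; over all genes 0% were called and 95 had an unadjusted p under 0.05. POLE2 was at the upper end (0.28), with 54.5, 109 and 79.6 at 500 nM and 46.8, 73.1 and 76.1 at 100 nM, and RFC2, RFC5 and POLE were at 0.09, 0.09 and -0.08.

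**Figure D3:**
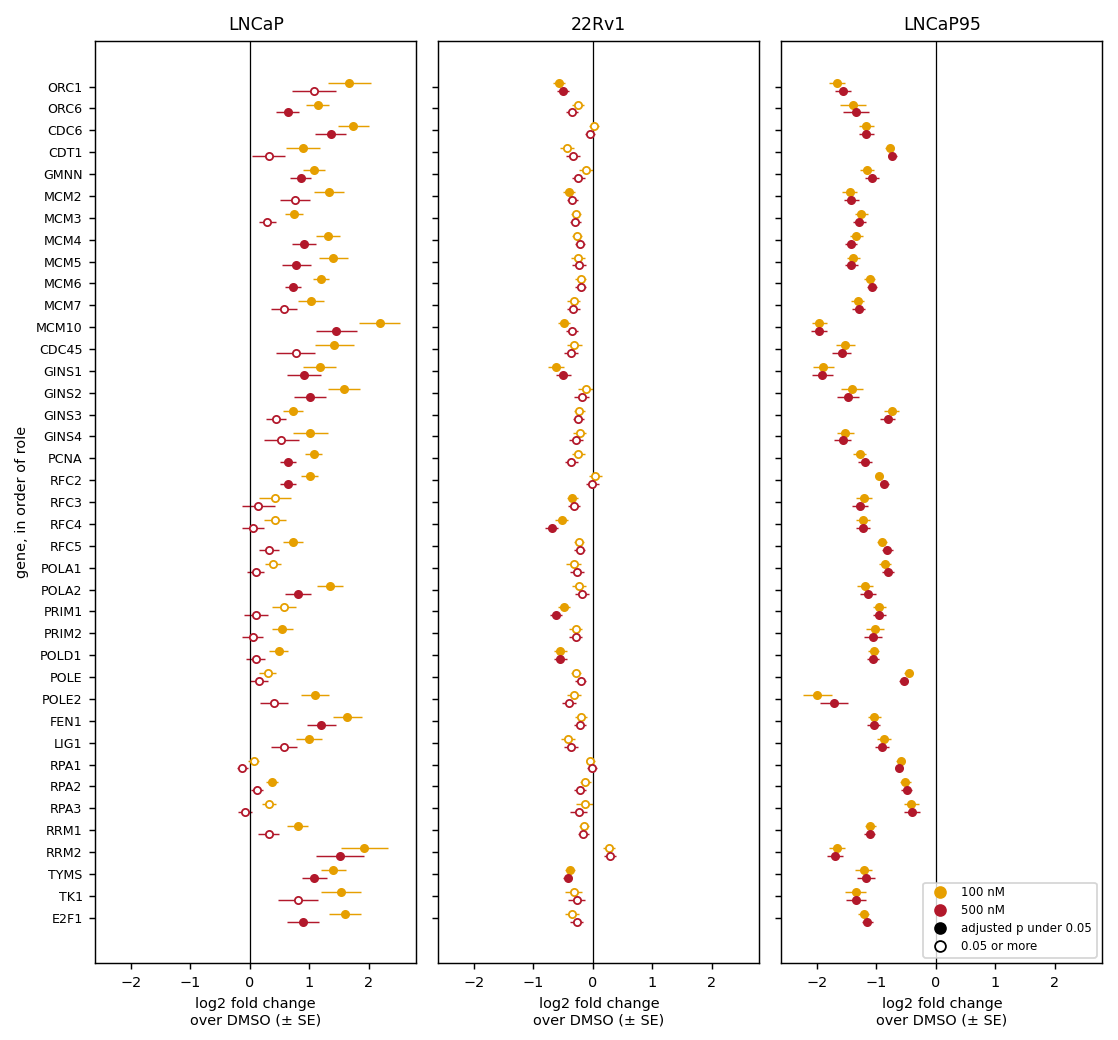
Log2 fold change over DMSO (± SE) of the 39 genes at 100 nM (orange) and 500 nM (red) in each line; filled points had an adjusted p under 0.05. In LNCaP95 all points are filled and left of 0, in LNCaP 32 are filled and right of 0 at 100 nM and 16 at 500 nM, and in 22Rv1 9 are filled and left of 0 at 100 nM and 6 at 500 nM.

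**Figure D4:**
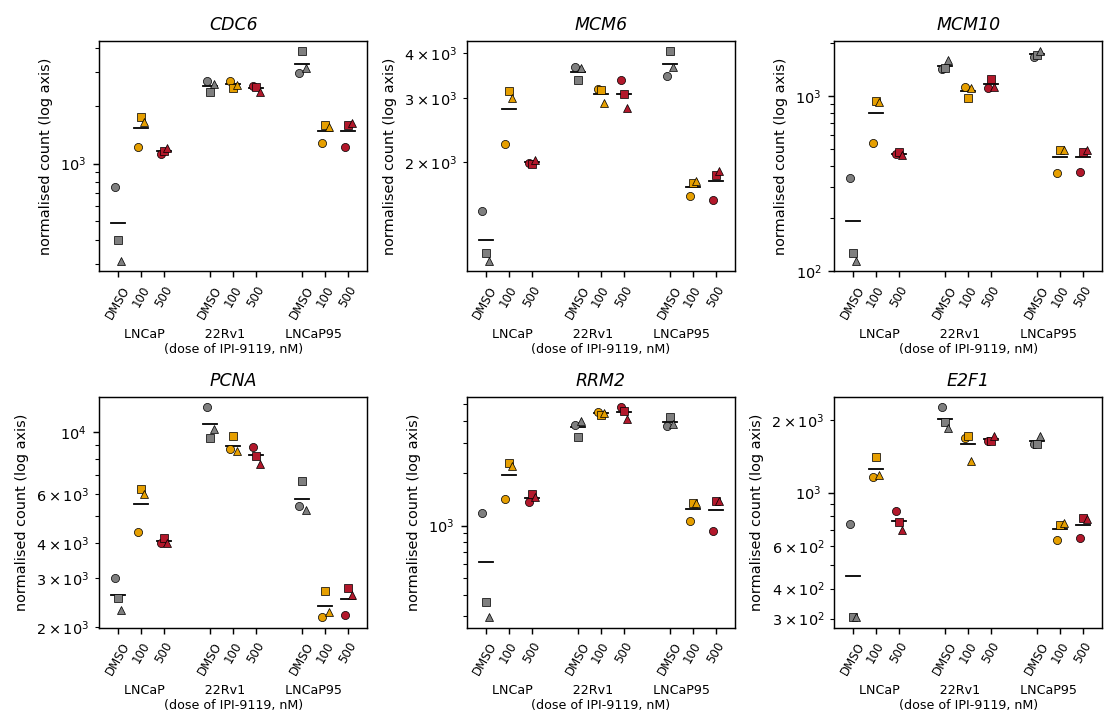
Normalised counts (log axis) of CDC6, MCM6, MCM10, PCNA, RRM2 and E2F1 in all 27 libraries by line and dose; circles, squares and triangles are replicates 1, 2 and 3 and bars the mean of 3. MCM10 was at 1677 to 1806 in LNCaP95 DMSO libraries and at 114 to 342 in LNCaP DMSO libraries, while the 500 nM libraries of both lines lay between 366 and 493.

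The differences between lines were tested as a difference of effects in a fit of all 27 libraries, over 11761 genes; that fit gives each gene 1 spread for all lines, and contrasts that name the same line share its libraries. The effect of 500 nM was lower in LNCaP95 than in LNCaP in 38 of 39 members (19.1% of all genes), with a median difference of -1.87. MCM6 differed by -1.79 ± 0.162 (adjusted p = 1.46e-08), MCM4 by -2.33 ± 0.216 (adjusted p = 2.1e-08) and MCM10 by -3.42 ± 0.359 (adjusted p = 1.1e-07). RPA3 did not pass, with a difference of -0.32 ± 0.207 (adjusted p = 0.236). At 100 nM the effect was lower in LNCaP95 in 39 of 39 (22.3% of all genes), with a median of -2.34 and MCM10 at -4.14 ± 0.359 (adjusted p = 3.44e-09).

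22Rv1 differed from LNCaP too. Its effect was lower in 27 of 39 members at 500 nM (7.52% of all genes; median -0.93) and in 36 at 100 nM (10.5%; median -1.35). TYMS differed by -1.51 ± 0.248 at 500 nM (adjusted p = 0.000173) and MCM6 by -1.40 ± 0.162 at 100 nM (adjusted p = 1.77e-06). Without LNCaP DMSO replicate 3 the 500 nM count was 17. Between the castration-resistant lines, the effect was lower in LNCaP95 than in 22Rv1 in 32 members at 500 nM (12.4% of all genes; median -0.88) and in 33 at 100 nM (12.3%; median -0.96), the 100 nM count being 21 without LNCaP95 100 nM replicate 1. MCM4 differed by -1.20 ± 0.216 at 500 nM (adjusted p = 0.000321), RFC2 by -0.998 ± 0.164 at 100 nM (adjusted p = 0.000146) and RRM2 by -1.98 ± 0.411 at 500 nM (adjusted p = 0.00124). PRIM1, whose 500 nM call in 22Rv1 held throughout, did not differ beyond the threshold between these lines at 500 nM (-0.33 ± 0.222, adjusted p = 0.291).

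**Figure D5:**
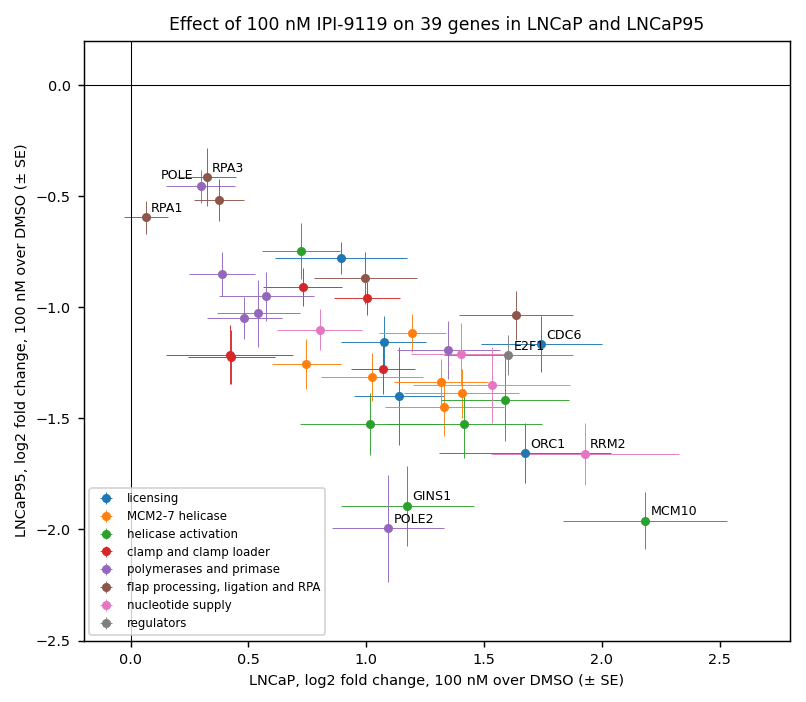
Log2 fold change over DMSO at 100 nM in LNCaP (x axis) and LNCaP95 (y axis) for the 39 genes, coloured by role, with bars of ± 1 SE. All points lie right of 0 and below 0; MCM10 lies low (-1.96 in LNCaP95) and farthest right (2.18 in LNCaP), POLE2 lies lowest (-1.995 in LNCaP95) but near the middle of the x axis (1.09 in LNCaP), and RPA1 lies at -0.59 in LNCaP95 and near 0 in LNCaP (0.06).

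Members with a large fall in LNCaP95 tended to have a high fold change in LNCaP. Over the 39 genes the log2 fold changes of the lines had a Pearson r of -0.69 and a Spearman rho of -0.69 at 100 nM, and -0.63 and -0.59 at 500 nM. The lines share no library, but the genes within a line share all of theirs, and the values are given as a description. At one end, at 100 nM, were MCM10 (-1.96 in LNCaP95 and 2.18 in LNCaP), RRM2 (-1.66 in LNCaP95 and 1.93 in LNCaP) and ORC1 (-1.66 in LNCaP95 and 1.67 in LNCaP). POLE2 (-1.995 in LNCaP95 and 1.09 in LNCaP) and GINS1 (-1.89 in LNCaP95 and 1.17 in LNCaP) departed from the pattern, with large falls in LNCaP95 beside log2 fold changes in LNCaP near the members' median of 1.07. RPA1, the large subunit of the single-strand binding complex (-0.59 in LNCaP95 and 0.06 in LNCaP), POLE, the catalytic subunit of polymerase epsilon (-0.46 in LNCaP95 and 0.30 in LNCaP), and RPA3 (-0.41 in LNCaP95 and 0.32 in LNCaP) were at the other. The 22Rv1 effects had, with those of LNCaP95, a Pearson r of 0.23 and a Spearman rho of 0.25 at 100 nM.

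Under DMSO alone the lines already differed in these genes. LNCaP95 was higher than LNCaP in 38 of 39 members (34% of all 14026 genes), with a median log2 difference of 1.29, and its libraries lay above those of LNCaP in 38 (35.4% of all genes). CDC6 had 2973, 3861 and 3143 in LNCaP95 against 754, 399 and 311 in LNCaP (2.86 ± 0.197, adjusted p = 5.31e-12). GMNN, the geminin that holds CDT1 in check, had 1402, 1792 and 1406 in LNCaP95 against 351, 319 and 308 in LNCaP (2.22 ± 0.154, adjusted p = 6.27e-12). MCM6 (1.62 ± 0.114) and MCM10 (3.34 ± 0.256) were higher too, and POLD1 did not pass, with 867, 898 and 903 in LNCaP95 against 898, 688 and 659 in LNCaP (0.26 ± 0.130, adjusted p = 0.0789).

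22Rv1 was higher than LNCaP in all 39 members (39.3% of all genes), with a median of 2.25. LIG1, the ligase that joins Okazaki fragments, had 4183, 3229 and 3197 in 22Rv1 against 362, 269 and 226 in LNCaP (3.64 ± 0.173, adjusted p = 1.95e-15). GINS3, a subunit of the GINS complex, had 669, 709 and 695 in 22Rv1 against 108, 107 and 92.9 in LNCaP (2.74 ± 0.127, adjusted p = 1.29e-15). RFC2 (2.35 ± 0.116) and POLE (2.25 ± 0.111) followed. The smallest was RPA1, with 4756, 4506 and 5054 in 22Rv1 against 4546, 3862 and 3982 in LNCaP, which overlapped (0.21 ± 0.077, adjusted p = 0.0172), a call lost under edgeR and without LNCaP DMSO replicate 2 or 3 or 22Rv1 DMSO replicate 3.

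LNCaP95 and 22Rv1 under DMSO differed in both directions: 22 members were lower and 3 higher in LNCaP95, against 40.8% and 35.4% of all genes, with a median of -0.55. POLD1 had 867, 898 and 903 in LNCaP95 against 4026, 3385 and 3230 in 22Rv1 (-1.99 ± 0.130, adjusted p = 8.43e-13). LIG1 had 556, 564 and 678 in LNCaP95 against 4183, 3229 and 3197 in 22Rv1 (-2.55 ± 0.173, adjusted p = 1.49e-12). GINS3 (-1.64) and POLE (-1.25) were lower as well. The 3 that were higher in LNCaP95 were RPA1, with 7514, 7862 and 7591 against 4756, 4506 and 5054 in 22Rv1 (0.68 ± 0.077, adjusted p = 1.93e-08), TK1, the S-phase thymidine kinase (0.75 ± 0.270, adjusted p = 0.0153), and RPA2 (0.28 ± 0.100, adjusted p = 0.0128). The call of TK1 was lost without 22Rv1 DMSO replicate 3, without LNCaP95 DMSO replicate 2 and with LNCaP95 replicates 1 and 3 only, and that of RPA2 without LNCaP95 DMSO replicate 3.

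Other replication factors, a list of 33 genes outside the 39, had smaller medians than the members. In LNCaP 4 rose and 0 fell at 500 nM (median 0.20), a share of 12.1% near the 11% of all genes, and 14 rose and 0 fell at 100 nM (42.4%, against 13.7% of all genes; median 0.42). CLSPN, the claspin that relays the replication checkpoint, rose by 1.53 ± 0.325 at 500 nM (adjusted p = 0.00758). In 22Rv1 7 fell and 0 rose at 500 nM, with TIMELESS, of the fork protection complex, at -0.50 ± 0.082 (adjusted p = 0.00394), and 3 fell and 0 rose at 100 nM (21.2% and 9.09% of the list, against 3.5% and 3.36% of all genes). In LNCaP95 26 fell and 1 rose at 500 nM and 25 fell and 2 rose at 100 nM (78.8% and 75.8% lower, against 24.1% of all genes). Of all genes, 28.2% rose there at either dose. TICRR, which helps load CDC45, fell by 1.83 ± 0.102 at 500 nM (adjusted p = 1.08e-07), with WDHD1 (-1.62) and MCM8 (-1.54).

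Of 28 other nucleotide synthesis genes, 4 rose and 5 fell in LNCaP at 500 nM (median 0.01), 0 rose and 2 fell in 22Rv1 (median 0.03), and 3 rose and 22 fell in LNCaP95 (median -0.62). The shares in LNCaP were 14.3% higher and 17.9% lower, against 11% and 9.83% of all genes. In 22Rv1 7.14% were lower, against 3.5% of all genes, and in LNCaP95 78.6%, against 24.1%. Of all genes, 28.2% rose in LNCaP95. SHMT2 and MTHFD2, mitochondrial enzymes of one-carbon metabolism, fell in LNCaP at 500 nM, by 0.97 ± 0.089 (adjusted p = 5.84e-05) and 1.35 ± 0.128 (adjusted p = 6.88e-05). In LNCaP95 SHMT2 rose at 500 nM (0.86 ± 0.083, adjusted p = 3.12e-06), while PFAS, an enzyme of purine synthesis, fell (-1.30 ± 0.096, adjusted p = 4.68e-07), as did CTPS2 (-0.85).

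Of 20 genes of the E2F and RB network and G1/S control, 6 rose and 2 fell in LNCaP at 500 nM, 1 rose and 3 fell in 22Rv1, and 3 rose and 14 fell in LNCaP95. The shares higher were 30% in LNCaP, against 11% of all genes, and the shares lower were 15% in 22Rv1, against 3.5%, and 70% in LNCaP95, against 24.1%. In the other direction, 9.83% of all genes fell in LNCaP, 3.47% rose in 22Rv1 and 28.2% rose in LNCaP95. CCNE2, a cyclin of S phase entry, rose by 1.66 ± 0.202 in LNCaP at 500 nM (adjusted p = 0.000286), and CDC25A, the phosphatase that activates CDK2, by 1.19 ± 0.210 (adjusted p = 0.00285). CDC25A fell in LNCaP95 at 500 nM (-1.26 ± 0.089, adjusted p = 3.87e-07), and so did E2F8 (-1.82 ± 0.137). CDKN1A, the CDK inhibitor p21, rose in 22Rv1 (0.997 ± 0.090, adjusted p = 9.27e-05) and in LNCaP95 (1.21 ± 0.090, adjusted p = 5.25e-07) at 500 nM. E2F2 fell in 22Rv1 (-0.62 ± 0.117, adjusted p = 0.00912).

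Mitosis genes, 22 in number, were counted beside the replication genes as another mark of cycling cells. In LNCaP 4 rose and 0 fell at 500 nM (18.2%, against 11% of all genes; median 0.90) and 19 rose and 0 fell at 100 nM (86.4%, against 13.7%; median 1.42). In 22Rv1 7 fell and 0 rose at 500 nM and 5 fell and 0 rose at 100 nM (31.8% and 22.7%, against 3.5% and 3.36% of all genes). In LNCaP95 22 of 22 fell at both doses, against 24.1% of all genes at each, with medians of -1.37 at 500 nM and -1.41 at 100 nM. CDK1, the mitotic kinase, was at 1.496 ± 0.292 in LNCaP (adjusted p = 0.0048), -0.57 ± 0.103 in 22Rv1 (adjusted p = 0.00674) and -2.04 ± 0.193 in LNCaP95 (adjusted p = 2.83e-06) at 500 nM.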

How the data were processed

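STAR 2.3.1z4, DESeq, featureCounts and the build hg19 are named, per the submitters' processing notes. Whether counting used strand is not given in the sources. Members whose span overlaps another gene of the table (ORC1, MCM7, GINS2, RFC5, PRIM2 and TYMS), or that have near-identical copies, are therefore uncertain. The deposited table holds a signal per gene, the normalised read count of the authors, a count divided by a size factor. All values were whole multiples of what 1 read was worth in the library (100% of values, tolerance 1e-06), so reads could be recovered for an edgeR 4.0.16 alternative.

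Values were transformed as log2(value + 1), which understates changes of low genes, and tested two-sided in limma 3.58.1 (R 4.3.3; trend over intensity), with Benjamini-Hochberg adjustment over all genes that had a value of 10 or more in at least 3 fitted libraries. Each line was fitted alone; differences between lines used all 27 libraries, with the filter met in each line, and comparisons of DMSO libraries used it over the 9 DMSO libraries. A gene was called at an adjusted p under 0.05. Errors are SE of log2 fold changes unless given as SD. The scripts were tested on simulated data, with the same dispersion for every gene and no library set apart. That test does not cover a spread such as that of LNCaP DMSO. The members, gene lists and tests were chosen with earlier results of these data known. Genes named were, per comparison, the 4 members with the smallest p, fixed members of each role (CDC6, MCM2, CDC45, PCNA, POLA1, FEN1, RRM2, E2F1, TYMS) and up to 3 genes of each other list; those at the ends of a range or named for a lost call were chosen after their values were seen.

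Same-numbered libraries deviated together (every correlation over 0.1) in LNCaP95 and, in LNCaP, between 500 nM and the other 2 groups for each number. They did not between LNCaP 100 nM and DMSO (-0.0031 to 0.082). In 22Rv1 the correlations were mixed, from -0.291 to 0.387. No column belonged to no sample (0 columns).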

Additional observations from a re-analysis of the deposited data

Results flagged for a closer look

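The response to IPI-9119 differed between lines by a test of the difference itself, made in 1 fit of all 27 libraries (limma, adjusted p under 0.05). At 500 nM the effect in LNCaP95 was lower than that in LNCaP in 38 members (19.1% of all genes). Among them were MCM6 (-1.79 on the log2 scale), MCM4 (-2.33), PCNA (-1.84) and MCM10 (-3.42). At 100 nM the effect was lower in 39 (22.3% of all genes), among them MCM6 (-2.31), PCNA (-2.35), MCM4 (-2.65) and RFC2 (-1.96).

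The effect in 22Rv1 was lower than that in LNCaP in 27 members at 500 nM (7.52% of all genes). TYMS was at -1.51, MCM6 at -0.93, PCNA at -1.01 and FEN1 at -1.42. The 100 nM count was 36 (10.5% of all genes), with MCM6 at -1.40, MCM10 at -2.67, MCM4 at -1.59 and TYMS at -1.78.

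The effect in LNCaP95 was lower than that in 22Rv1 in 32 members at 500 nM (12.4% of all genes). MCM4 was at -1.20, RPA1 at -0.61, MCM3 at -0.99 and MCM6 at -0.87. The 100 nM count was 33 (12.3% of all genes), with RFC2 at -0.998, MCM6 at -0.91, PCNA at -1.03 and MCM3 at -0.97.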

How the results depend on the processing

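The falls in LNCaP95 and the rises in LNCaP at 100 nM stayed within 1.5 times their counts under every alternative run. Leaving out 1 library at a time gave 8 to 28 members called in LNCaP at 500 nM (28 without DMSO replicate 1, 8 without DMSO replicate 2 or 3, 9 without any 1 of the 500 nM libraries) and 25 to 37 at 100 nM. It gave 2 to 5 in 22Rv1 at 500 nM, 0 to 11 in 22Rv1 at 100 nM and 38 to 39 in LNCaP95 at either dose. The difference of effects gave 17 to 33 for 22Rv1 minus LNCaP at 500 nM, 22 to 31 for LNCaP95 minus 22Rv1 at 500 nM and 21 to 32 for it at 100 nM. Scaling to equal totals gave 22 in 22Rv1 at 500 nM and 24 at 100 nM, where it shifted the median of all genes to -0.09 and -0.10 (0.21 for DMSO LNCaP95 minus LNCaP). It moved the share of calls higher to 39.5% from 50.9% (500 nM) for the difference LNCaP95 minus LNCaP, to 21.4% from 47.4% (500 nM) and 22.7% from 44.9% (100 nM) for 22Rv1 minus LNCaP, to 61.6% from 51.2% (500 nM) for LNCaP95 minus 22Rv1 and to 63.3% from 51.1% for DMSO LNCaP95 minus LNCaP. A fit of all 27 libraries gave 3 and 2 in 22Rv1 at 500 nM and 100 nM. LNCaP replicates 2 and 3 only, chosen after seeing the data, gave 31 in LNCaP at 500 nM and 33 for 500 nM minus 100 nM. Of all genes, 29.6% and 5.96% were then called in either direction. CDC6 in 22Rv1 at 100 nM (0.02, not called) reversed to -0.0713 with equal totals, and over left-out libraries ran from -0.0330 to 0.0639. With the replicate block the counts were 17 and 32 in LNCaP, 6 and 8 in 22Rv1 and 39 and 39 in LNCaP95 at 500 nM and 100 nM; of 118 named values it moved 1 past the threshold and ended no call. The edgeR test on recovered reads gave 12 and 29 in LNCaP, 6 and 9 in 22Rv1 and 39 and 39 in LNCaP95. The cause of these shifts was not tested. Shares of all genes called under these alternatives are not reported here, except for LNCaP replicates 2 and 3 only. The other counts therefore cannot be set against those of all genes. Counting error covers only part of the spread, which was widest in LNCaP DMSO, and 3 libraries a group limit small changes such as those of 22Rv1.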

Other observations

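Genes that rebuild chromatin behind the fork, a list of 8, were counted in each line. In LNCaP 1 rose and 0 fell at 500 nM (12.5%, near the 11% of all genes; median log2 fold change 0.37), which was HELLS, a chromatin remodeller (0.99 ± 0.257, limma adjusted p = 0.0203), and 6 rose and 0 fell at 100 nM (75%, against 13.7% of all genes; median 0.76). In 22Rv1 4 fell and 0 rose at 500 nM and 3 fell and 0 rose at 100 nM (50% and 37.5%, against 3.5% and 3.36% of all genes), with CHAF1B, of the histone chaperone CAF-1, at -0.47 ± 0.107 at 500 nM (adjusted p = 0.0214). In LNCaP95 7 fell and 0 rose at each dose (87.5%, against 24.1% of all genes). DNMT1, the maintenance DNA methyltransferase, fell there by 1.04 ± 0.068 at 500 nM (adjusted p = 2.49e-07) and was at 0.12 ± 0.142 in LNCaP (adjusted p = 0.599).

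The spread of the members between replicates differed by group. The median coefficient of variation over the 39 genes was 6.04% in LNCaP at 500 nM, 20.4% at 100 nM and 27.9% with DMSO, where RRM2 reached 80.5%. In 22Rv1 it was 4.76% at 500 nM, 7.81% at 100 nM and 9.17% with DMSO. In LNCaP95 it was 12.7% at 500 nM, 11.3% at 100 nM and 7.19% with DMSO.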
